A study of Homo sapiens with 6 samples.

Results

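Hypoxia-inducible factors (HIF) switch on a set of genes when oxygen is short, and the genes described here are 34 known HIF targets that encode neither glycolytic enzymes, nor carbonic anhydrases, nor oxygenases. They were chosen by name, from knowledge of HIF targets and with earlier results of the same 6 libraries in view, so their counts of calls are a description and support nothing. All 34 symbols matched a gene among the 60564 of the deposited count table, and all 34 were among the 17006 genes with enough counts to be tested. No label names an oxygen level, and the word hypoxia refers only to what these genes are known for.

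RNA-seq counts were deposited for 6 libraries from A2780, an established human ovarian cancer cell line. Per the labels, 3 libraries have the genotype GPT2sinc and 3 the genotype GPT2si, and the labels spell out neither si nor sinc. The series title names a deficiency of GPT2, the mitochondrial alanine aminotransferase. No culture condition, time or agent is given for either group, both groups come from this 1 line, and no label says that the libraries of a group come from separate cultures. The p-values therefore reflect only how these 6 libraries vary, and that variation may be technical.

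HIF is a pair of proteins, an alpha subunit that prolyl hydroxylases (EGLN) mark for destruction by VHL when oxygen is present, and the stable partner ARNT. When the alpha subunit persists, the pair binds the letters ACGTG or GCGTG in promoters and enhancers and raises transcription. Outside glycolysis its targets are known for vessel growth (VEGFA), turnover of mitochondria (BNIP3 and BNIP3L), lipid storage (PLIN2 and HILPDA), and restraint of growth (DDIT4), and cancer cells often express them at ordinary oxygen.

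Promoter sequences were looked up for all members in RefSeq (GRCh38.p14), in windows from 250 bases before to 50 bases after the start of each gene, and 23 of the 34 had a window. VEGFA, PDGFB, LOXL2, BNIP3L, NDUFA4L2, HILPDA, ZNF395, NDRG1, FUT11, ANKZF1 and SPAG4 had none in the table. The letters ACGTG or GCGTG, on either strand, stood in 21 of the 23 windows (91.3%), against 69.0% of the 11739 tested genes that had a window and 52.4% of all 27305 genes in the table. The stricter letters ACGTG stood in 17 (73.9%), against 31.7% of tested genes and 24.9% of all genes. ADM, EFNA1, EFNA3 and VLDLR held GCGTG without ACGTG, and RORA and TMEM45A held neither. In 10 members the match was part of CACGTG, the E-box letters that other factors also bind. LOX, CITED2 and NARF had 3 windows each and INSIG2 had 2, and a gene was counted if any of its windows held the letters. As the members were chosen as known HIF targets, a higher share than in other genes may follow from that choice. Nothing is read from it. A match is a description of letters and not a binding site.

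The 8 stretches below show such a match in the 5 members that held ACGTG and passed the test between the groups (the first 5), and in the 3 members with ACGTG whose difference was smallest (the last 3), a choice made after the values were seen. Each runs 5′ to 3′ on the strand of its gene, and the capitals mark ACGTG, or CACGT where the match lies on the other strand.
ANGPTL4: ggaaagaagagtCACGTctcccacggttc
BNIP3: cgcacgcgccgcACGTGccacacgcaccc
FAM162A: cagcgcgtggcgCACGTcctacacgcccc
PLIN2: ctgccgcgggtcACGTGctgcggaggctt
MIR210HG: ctccccgggcagACGTGcagaaaagaacg
BHLHE40: cacagggtagaaCACGTagctccaaccca
DDIT4: agaacgttgcttACGTGcgcccggagtcc
NARF: tccgggtccatcACGTGgttactgacagg
On GRCh38.p14 the ANGPTL4 stretch is chr19:8363909-8363937 (plus strand), the BNIP3 stretch chr10:131982040-131982068 (minus strand) and the FAM162A stretch chr3:122384086-122384114 (plus strand). The PLIN2 stretch is chr9:19127544-19127572 (minus strand) and that of MIR210HG, a long non-coding RNA gene, is chr11:568611-568639 (minus strand). The stretches of BHLHE40, DDIT4 and NARF are chr3:4979276-4979304 (plus strand), chr10:72273787-72273815 (plus strand) and chr17:82458135-82458163 (plus strand). The first base of the match lies from 51 bases (NARF) to 234 bases (ANGPTL4) ahead of the start that the RefSeq window uses. The outermost starts in GENCODE 29 can differ from these RefSeq starts. By that annotation the stretches of ANGPTL4, BHLHE40 and PLIN2 lie inside the gene, 620, 160 and 21718 bases past its outermost start.

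The 17 members with ACGTG had a median log2 fold change of -0.69 (from -1.08 to -0.17), the 6 with a window but without it had -0.30, and the 11 without a window had -0.62. Of these groups 5, 1 and 7 members passed the test as lower. These are counts of letters beside counts of genes, and no test was made of one against the other.

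GPT2 itself (ENSG00000166123) stood at 236, 229.9 and 219 CPM in GPT2sinc 1 to 3 and 93.8, 94.3 and 96.9 CPM in GPT2si 1 to 3, and its log2 fold change of GPT2si over GPT2sinc was -1.26 (SE 0.08, adjusted p = 0.000393). CPM are counts per 1000000, scaled by the TMM factors of edgeR, and every log2 fold change below is GPT2si over GPT2sinc with its standard error (SE) and a Benjamini-Hochberg adjusted p over all tested genes. Total counts ran from 43351984 to 45508530 in GPT2sinc and from 41931162 to 50882329 in GPT2si, so that 3 counts equal 0.0597 to 0.0770 CPM. GPT2si 2 stood apart from the other libraries of its group: the chi-square over genes, divided by its degrees of freedom, was 37.9 against GPT2si 1 and 46.3 against GPT2si 3, and 7.71 between those. GPT2sinc 1 stood apart less, at 17.6 and 18.9 against 9.12 between GPT2sinc 2 and GPT2sinc 3. Mitochondrially encoded mRNAs took 4.64% ± 0.384 of counts in GPT2si and 4.02% ± 0.589 in GPT2sinc (SD, n = 3 each, two-sided exact permutation p = 0.3, smallest possible 0.1). Of the 13 such mRNAs 12 had a positive log2 fold change, with a median of 0.34. None passed in edgeR, where an unadjusted p under 0.05 was reached by 7, all higher, DESeq2 called 3 higher, and in 7 every GPT2si library lay above GPT2sinc. Of 10 genes listed as epithelial and ovarian carcinoma markers, WT1 and KRT7 had no counts in any library. PAX8 stood at 0.0796 to 0.351 CPM and KRT8 at 31.0 to 42.9 CPM. The sum of the 10 was 247 to 256 CPM in GPT2sinc and 278 to 287 CPM in GPT2si. Most of it came from ARID1A, at 188.4 to 214.5 CPM, so the sum says little about the other genes of the list. Summed CPM of 6 fibroblast markers were 2857 to 3019 and 2876 to 3062, mostly COL3A1, and those of 6 endothelial markers 0.262 to 0.529 and 0.0994 to 0.659. Of the cell type markers 13 had enough counts to be tested, and 0 passed in edgeR (unadjusted 1 lower and 2 higher, DESeq2 0 and 0). The part of either set in the results below was not tested.

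Across the 34 members GPT2si was lower in most. In edgeR, 13 members passed at an adjusted p of 0.05 as lower and 0 as higher, and 21 did not pass. Among all tested genes 143 were called lower, 0.841%, and 98 higher, 0.576%. At an unadjusted p under 0.05, 29 members were lower and 0 higher, beside 9.27% and 10.3% of all tested genes. DESeq2 called 22 members lower and 0 higher, beside 3.42% and 4.47% of genes. In 28 members every GPT2si library lay below every GPT2sinc library, which held for 13.2% of all tested genes. In 1 member (PDGFB) every GPT2si library lay above, against 14.9% of all tested genes. LOX, LOXL2, BHLHE41, RORA and NARF were the 5 members whose groups overlapped. The median log2 fold change of the members was -0.65, beside -0.01 over all tested genes, of which the middle range (25th to 75th percentile) ran from -0.23 to 0.17. As the members were chosen with this contrast known, nothing is read from these shares.

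**Figure D1:**
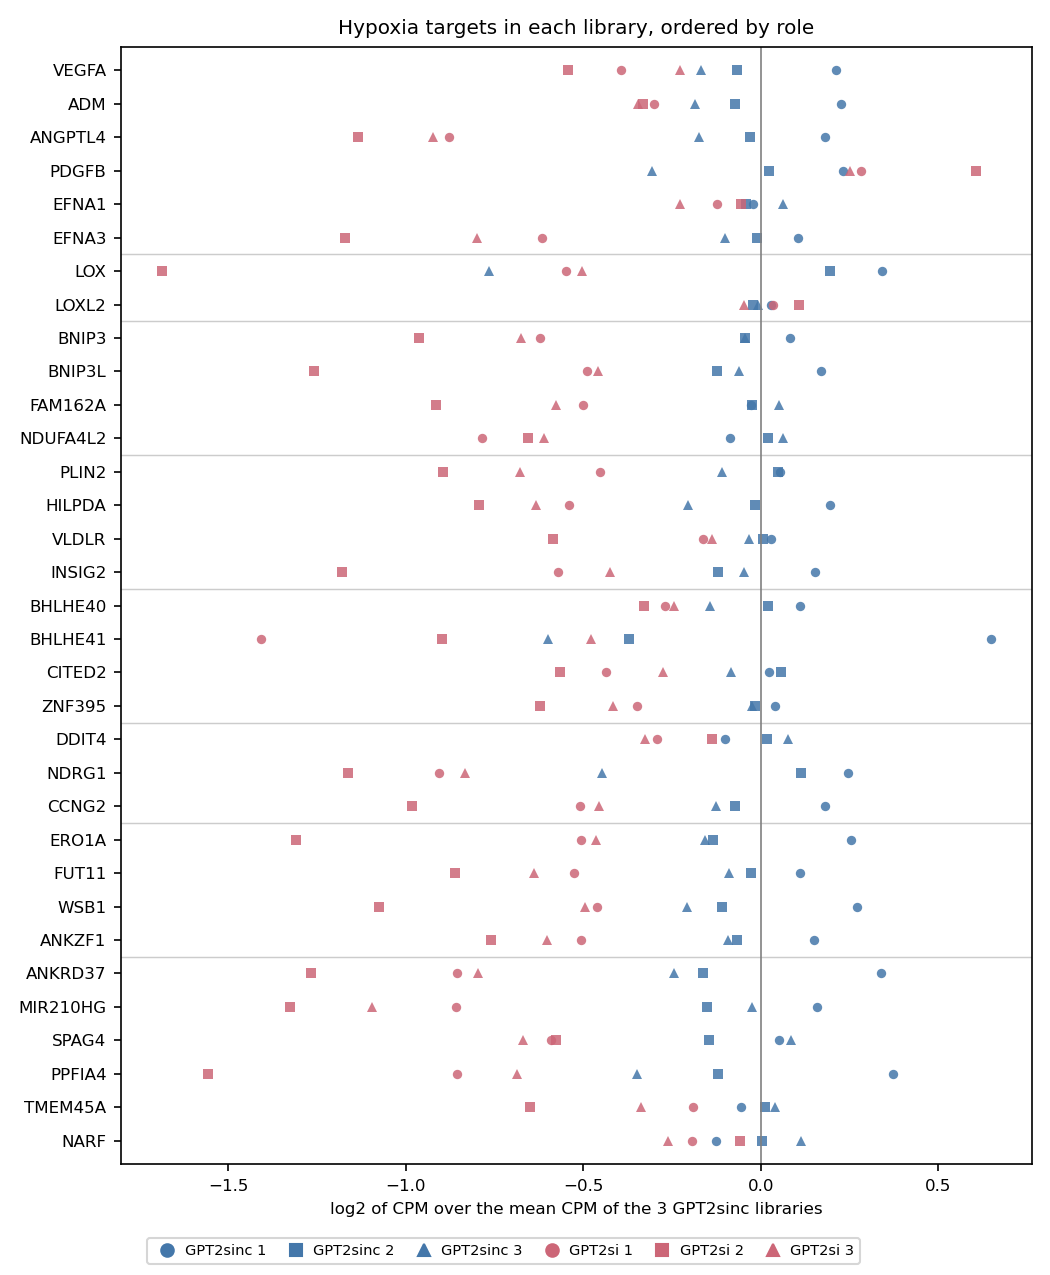
Each point is the log2 of a library's CPM over the mean CPM of the 3 GPT2sinc libraries, for 33 members in order of role (RORA, with 48 counts in all, is left out). The GPT2si points lie to the left of all GPT2sinc points in 28 members, and GPT2si 2 (square) is the farthest left in most.

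The count of calls depended on single libraries, over the whole table as well as in the members, while the direction did so in only 2 members. Without GPT2si 2 edgeR called 17 members lower, the 13 among them, beside 459 of all genes (2.62%), and without GPT2si 3 it called 5, beside 58 (0.333%). Without GPT2sinc 3 it called 1 member lower, beside 4 of all genes lower (0.0229%) and 1 higher. Without GPT2sinc 1, GPT2sinc 2 or GPT2si 1 it called 0 members, and 1 gene lower each time (0.00576%, 0.00577% and 0.00573%). Genes called higher numbered 3 without GPT2sinc 1 and 0 without GPT2sinc 2. At an unadjusted p under 0.05, 24, 24, 27 and 26 members were lower without GPT2sinc 1, 2, 3 and GPT2si 1. The share of all tested genes at that level, 9.27% with all 6 libraries, was not counted in these fits. Nothing is therefore read from these 4 counts. An alternative chosen after seeing the data left out both GPT2sinc 1 and GPT2si 2, the libraries at the 2 ends for most members. It called 23 members lower, beside 825 of all genes (4.8%), and the members' median was -0.39. Leaving out single libraries gave medians from -0.69 to -0.51. LOXL2 and RORA, both near 0, were the members that changed sign in any of these fits.

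In most members GPT2si 2 and GPT2sinc 1 were the libraries at the ends. GPT2si 2 was the lowest of the 6 libraries in 25 members (73.5%), against 33.7% of all tested genes, and GPT2sinc 1 the highest in 24 members (70.6%), against 24.9%. Centred on each member's mean over the 6 libraries, the median member stood at 0.45, 0.25 and 0.20 on the log2 scale in GPT2sinc 1 to 3, and at -0.18, -0.49 and -0.17 in GPT2si 1 to 3. With GPT2si 2 set aside, GPT2si 1 and 3 still lay below all GPT2sinc libraries in 29 members (85.3%), beside 19.3% of all tested genes.

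Among the secreted and cell surface signals, ANGPTL4 and EFNA3 fell in GPT2si, and the other 4 of the 6 did not pass the test. In a bulk RNA sample, fewer cells that express a gene and less RNA per cell cannot be told apart, here and below. Positions are those of GENCODE 29 on GRCh38, and every member but MIR210HG is annotated as protein coding. ANGPTL4 (ENSG00000167772, chromosome 19, 8363289 to 8374373, plus strand), a secreted inhibitor of lipoprotein lipase, stood at 219, 189 and 171 CPM in GPT2sinc 1 to 3 and 105, 87.8 and 102 CPM in GPT2si 1 to 3. All 3 GPT2si libraries were near the same level, well under the lowest GPT2sinc library. The mean fell from 193 ± 24.1 to 98.2 ± 9.09 CPM (SD, n = 3 each), 50.9% of the GPT2sinc mean, with a log2 fold change of -0.97 (SE 0.11, adjusted p = 0.0115). EFNA3 (ENSG00000143590, chromosome 1, 155078872 to 155087538, plus strand), a membrane-bound ligand of EPH receptors, stood at 48.5, 44.8 and 42.0 CPM in GPT2sinc 1 to 3 and 29.4, 20.0 and 25.9 CPM in GPT2si 1 to 3, a log2 fold change of -0.84 (SE 0.14, adjusted p = 0.0289). The groups did not overlap, and GPT2si 2 was the lowest. By annotation, 44.7% of the exon bases of EFNA3 are shared with AL691442.1 on the same strand, a gene with 96 counts in the 6 libraries together, against 9570 for EFNA3.

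VEGFA (ENSG00000112715, chromosome 6, 43770184 to 43786487, plus strand), the main growth factor of vessels, stood at 125, 103 and 96.0 CPM in GPT2sinc 1 to 3 and 82.1, 74.1 and 92.2 CPM in GPT2si 1 to 3. The groups were apart, but by little, between GPT2sinc 3 and GPT2si 3. Its log2 fold change of -0.38 (SE 0.12, adjusted p = 0.134) did not pass. ADM (ENSG00000148926, chromosome 11, 10304680 to 10307397, plus strand), the precursor of the vessel-widening peptide adrenomedullin, stood at 43.6, 35.4 and 32.8 CPM in GPT2sinc 1 to 3 and 30.2, 29.6 and 29.3 CPM in GPT2si 1 to 3, a log2 fold change of -0.33 (SE 0.12, adjusted p = 0.185). The GPT2si libraries were almost equal and below GPT2sinc, in which GPT2sinc 1 was the highest. EFNA1 (ENSG00000169242, chromosome 1, 155127460 to 155134857, plus strand), another ephrin, stood at 34.2, 33.7 and 36.2 CPM in GPT2sinc 1 to 3 and 31.9, 33.4 and 29.6 CPM in GPT2si 1 to 3, a log2 fold change of -0.13 (SE 0.10, adjusted p = 0.473). Its groups were separated by less than 1 CPM. PDGFB (ENSG00000100311, chromosome 22, 39223359 to 39244751, minus strand), a growth factor for pericytes, was the 1 member with every GPT2si library above GPT2sinc, at 4.58, 3.96 and 3.15 CPM in GPT2sinc 1 to 3 and 4.73, 5.93 and 4.63 CPM in GPT2si 1 to 3. The gap to GPT2sinc 1 was small, and the log2 fold change of 0.39 (SE 0.19, adjusted p = 0.291) did not pass.

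Neither of the 2 matrix oxidases passed the edgeR test: 1 was lower at an unadjusted p under 0.05 (LOX), and DESeq2 called neither. LOX (ENSG00000113083, chromosome 5, 122063195 to 122078360, minus strand) and LOXL2 (ENSG00000134013, chromosome 8) cross-link collagen outside the cell. LOX stood at 5.64, 5.10 and 2.62 CPM in GPT2sinc 1 to 3 and 3.04, 1.39 and 3.14 CPM in GPT2si 1 to 3, a log2 fold change of -0.81 (SE 0.35, adjusted p = 0.239). GPT2sinc 3 lay below GPT2si 1 and GPT2si 3, so the groups overlapped. LOXL2 stood at 109, 106 and 107 CPM in GPT2sinc 1 to 3 and 109.9, 116 and 104 CPM in GPT2si 1 to 3, a log2 fold change of 0.03 (SE 0.08, adjusted p = 0.846). All 6 libraries were close together, and the sign of this difference turned with upper-quartile scaling (-0.01) and without GPT2si 2 (-0.02).

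In the group of mitochondrial proteins, BNIP3, FAM162A and NDUFA4L2 fell, 3 of the 4 members, and the median log2 fold change was -0.69. BNIP3 (ENSG00000176171, chromosome 10, 131966455 to 131982013, minus strand), a receptor on the outer membrane that marks mitochondria for autophagy, stood at 282, 258 and 258 CPM in GPT2sinc 1 to 3 and 173, 136 and 167 CPM in GPT2si 1 to 3. The 3 GPT2sinc libraries were close together and all GPT2si libraries lay well below them, GPT2si 2 lowest. The mean fell from 266 ± 13.7 to 159 ± 19.4 CPM (SD, n = 3 each), 59.6% of the GPT2sinc level, a log2 fold change of -0.75 (SE 0.10, adjusted p = 0.0159). FAM162A (ENSG00000114023, chromosome 3, 122384176 to 122412334, plus strand), a mitochondrial protein tied to cell death in low oxygen, stood at 217, 218 and 229.5 CPM in GPT2sinc 1 to 3 and 156, 117 and 148 CPM in GPT2si 1 to 3, a log2 fold change of -0.65 (SE 0.11, adjusted p = 0.0281). The groups were far apart here too. NDUFA4L2 (ENSG00000185633, chromosome 12, 57234903 to 57240715, minus strand), a relative of the respiratory chain protein NDUFA4 that lowers oxygen use, stood at 21.8, 23.4 and 24.1 CPM in GPT2sinc 1 to 3 and 13.4, 14.7 and 15.2 CPM in GPT2si 1 to 3, a log2 fold change of -0.68 (SE 0.11, adjusted p = 0.0251). GPT2si 2 was not the lowest library in this gene, and the 3 GPT2si values were alike. NDUFA4L2 shares 33 exon bases with SHMT2 on the opposite strand, which had 119825 counts in all libraries against 5077.

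BNIP3L (ENSG00000104765, chromosome 8), the close relative of BNIP3 with the same task, stood at 179, 146 and 153 CPM in GPT2sinc 1 to 3 and 114, 66.6 and 116 CPM in GPT2si 1 to 3. The groups did not overlap, but GPT2si 2 lay far below GPT2si 1 and GPT2si 3. Its log2 fold change of -0.69 (SE 0.19, adjusted p = 0.103) was near that of BNIP3, with a larger SE, and did not pass. It passed in 5 of 15 other settings. These were DESeq2, the GC and length offsets described below, a block by replicate number, that block with the offsets, and the fit without GPT2si 2. In the last its log2 fold change was -0.49.

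PLIN2 and HILPDA fell among the 4 members of lipid storage, lipoprotein uptake and sterol control. PLIN2 (ENSG00000147872, chromosome 9, 19108375 to 19149290, minus strand), the protein that coats lipid droplets, stood at 87.1, 86.9 and 77.9 CPM in GPT2sinc 1 to 3 and 61.3, 45.2 and 52.4 CPM in GPT2si 1 to 3, a log2 fold change of -0.66 (SE 0.12, adjusted p = 0.0366). Every GPT2si library lay below GPT2sinc, and the GPT2si libraries differed more among themselves than the GPT2sinc libraries did. HILPDA (ENSG00000135245, chromosome 7, 128455849 to 128458418, plus strand), an inhibitor of the droplet lipase PNPLA2, stood at 74.8, 64.6 and 56.6 CPM in GPT2sinc 1 to 3 and 45.0, 37.7 and 42.1 CPM in GPT2si 1 to 3, a log2 fold change of -0.65 (SE 0.12, adjusted p = 0.0428). The groups were apart by more than 10 CPM, and the GPT2si values were close together. INSIG2 (ENSG00000125629, chromosome 2, 118088452 to 118110997, plus strand), which holds the sterol sensor SCAP in the endoplasmic reticulum, stood at 43.5, 36.0 and 37.9 CPM in GPT2sinc 1 to 3 and 26.3, 17.3 and 29.2 CPM in GPT2si 1 to 3, a log2 fold change of -0.69 (SE 0.18, adjusted p = 0.0888). The groups did not overlap, GPT2si 2 was far the lowest, and the test was not passed. VLDLR (ENSG00000147852, chromosome 9, 2621834 to 2660053, plus strand), a receptor that takes up lipoproteins, stood at 64.3, 63.3 and 61.6 CPM in GPT2sinc 1 to 3 and 56.4, 42.0 and 57.4 CPM in GPT2si 1 to 3, a log2 fold change of -0.28 (SE 0.12, adjusted p = 0.251). GPT2si 1 and GPT2si 3 were close to GPT2sinc, and GPT2si 2 alone was much lower.

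Of the 5 transcription regulators, ZNF395 passed as lower. ZNF395 (ENSG00000186918, chromosome 8), a zinc finger protein, stood at 204, 196 and 195 CPM in GPT2sinc 1 to 3 and 156, 129 and 149 CPM in GPT2si 1 to 3, a log2 fold change of -0.46 (SE 0.09, adjusted p = 0.0476). The GPT2sinc libraries were nearly equal and the groups were apart. Of its exon bases 34.9% are shared with FBXO16 on the same strand, a gene with 2363 counts against 46683. BHLHE40 (ENSG00000134107, chromosome 3, 4979116 to 4985323, plus strand), a repressor of the circadian clock, stood at 83.5, 78.5 and 70.0 CPM in GPT2sinc 1 to 3 and 64.1, 61.6 and 65.2 CPM in GPT2si 1 to 3, a log2 fold change of -0.28 (SE 0.09, adjusted p = 0.150). The groups did not overlap, and GPT2sinc 3 was near GPT2si. CITED2 (ENSG00000164442, chromosome 6, 139371807 to 139374620, minus strand), which competes with HIF for the coactivators CREBBP and EP300, stood at 9.26, 9.49 and 8.60 CPM in GPT2sinc 1 to 3 and 6.74, 6.16 and 7.53 CPM in GPT2si 1 to 3, a log2 fold change of -0.42 (SE 0.14, adjusted p = 0.145). Its groups did not overlap either, at low levels.

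BHLHE41 and RORA were the 2 members measured with least precision. BHLHE41 (ENSG00000123095, chromosome 12, 26120026 to 26125127, minus strand), the sister repressor of BHLHE40, stood at 2.40, 1.18 and 1.01 CPM in GPT2sinc 1 to 3 and 0.577, 0.821 and 1.10 CPM in GPT2si 1 to 3, a log2 fold change of -0.88 (SE 0.38, adjusted p = 0.239). GPT2sinc 1 alone was high, and the other 5 libraries overlapped. RORA (ENSG00000069667, chromosome 15, 60488284 to 61229319, minus strand), a nuclear receptor of the clock, had 48 counts in the 6 libraries together and stood at 0.370, 0.108 and 0.0460 CPM in GPT2sinc 1 to 3 and 0.239, 0 and 0.263 CPM in GPT2si 1 to 3, a log2 fold change of -0.02 (SE 0.93, adjusted p = 0.994). A count of 0 in GPT2si 2 allows up to 0.0770 CPM, and no difference in RORA was detectable at this depth.

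NDRG1 fell among the 3 members of growth control and stress. NDRG1 (ENSG00000104419, chromosome 8), a protein of differentiation and stress that is a common marker of low oxygen, stood at 32.8, 29.9 and 20.3 CPM in GPT2sinc 1 to 3 and 14.8, 12.4 and 15.5 CPM in GPT2si 1 to 3. All GPT2si libraries were below GPT2sinc, and GPT2sinc 3 was lower than its group. The mean fell from 27.7 ± 6.55 to 14.2 ± 1.66 CPM (SD, n = 3 each), which left 51.4%, a log2 fold change of -0.96 (SE 0.18, adjusted p = 0.0413). CCNG2 (ENSG00000138764, chromosome 4, 77157151 to 77433388, plus strand), a cyclin that slows the cell cycle, stood at 87.1, 73.0 and 70.4 CPM in GPT2sinc 1 to 3 and 54.0, 38.9 and 56.1 CPM in GPT2si 1 to 3, a log2 fold change of -0.63 (SE 0.15, adjusted p = 0.0711). The groups were apart and GPT2si 2 was the lowest, yet the test was not passed. DDIT4 (ENSG00000168209, chromosome 10, 72273920 to 72276036, plus strand), an inhibitor of the growth kinase complex mTORC1, stood at 495, 537 and 559 CPM in GPT2sinc 1 to 3 and 433, 482 and 423 CPM in GPT2si 1 to 3, a log2 fold change of -0.25 (SE 0.09, adjusted p = 0.164). GPT2si 2 was close to GPT2sinc 1, and the groups were barely apart. DDIT4-AS1 on the opposite strand shares 41.2% of the exon bases of DDIT4 and had 5 counts, against 131816.

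FUT11 and ANKZF1 fell among the 4 members of protein folding, glycosylation and turnover. FUT11 (ENSG00000196968, chromosome 10, 73772291 to 73780251, plus strand), a fucosyltransferase, stood at 122, 111 and 106 CPM in GPT2sinc 1 to 3 and 78.4, 62.1 and 72.5 CPM in GPT2si 1 to 3, a log2 fold change of -0.67 (SE 0.11, adjusted p = 0.0250). ANKZF1 (ENSG00000163516, chromosome 2, 219229757 to 219236669, plus strand), which frees peptides stuck on stalled ribosomes, stood at 136, 117 and 115 CPM in GPT2sinc 1 to 3 and 86.5, 72.6 and 81.0 CPM in GPT2si 1 to 3, a log2 fold change of -0.62 (SE 0.10, adjusted p = 0.0275). In both genes the groups were far apart and GPT2si 2 was the lowest. ERO1A (ENSG00000197930, chromosome 14, 52639916 to 52695900, minus strand), the oxidase that drives disulfide formation in the endoplasmic reticulum, stood at 328, 251 and 247 CPM in GPT2sinc 1 to 3 and 194, 111 and 199.6 CPM in GPT2si 1 to 3, a log2 fold change of -0.71 (SE 0.21, adjusted p = 0.115). GPT2sinc 1 was well above the other GPT2sinc libraries and GPT2si 2 well below the other GPT2si libraries. WSB1 (ENSG00000109046, chromosome 17, 27294076 to 27315926, plus strand), a substrate receptor of a ubiquitin ligase, stood at 142, 109 and 102 CPM in GPT2sinc 1 to 3 and 85.6, 56.0 and 83.7 CPM in GPT2si 1 to 3, a log2 fold change of -0.65 (SE 0.17, adjusted p = 0.0980). It had the same order of libraries at the ends, GPT2sinc 1 highest and GPT2si 2 lowest, and the groups did not overlap in ERO1A or WSB1.

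Of the 6 remaining members, MIR210HG and SPAG4 fell. MIR210HG (ENSG00000247095, chromosome 11, 565660 to 568457, minus strand), the host transcript of the microRNA miR-210, stood at 28.3, 22.9 and 24.98 CPM in GPT2sinc 1 to 3 and 14.0, 10.1 and 11.9 CPM in GPT2si 1 to 3. Every GPT2si library lay far below GPT2sinc. The mean fell from 25.4 ± 2.74 to 12 ± 1.94 CPM (SD, n = 3 each), 47.3% of the GPT2sinc level, and the log2 fold change of -1.08 (SE 0.15, adjusted p = 0.0159) was the most negative of the 34 members. The mature miR-210 sequences from RefSeq are printed because this host gene had that place, with the seed (bases 2 to 8) in capitals.
hsa-miR-210-3p: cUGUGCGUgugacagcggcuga
hsa-miR-210-5p: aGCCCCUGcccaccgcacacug
They lie at chr11:568112-568133 and chr11:568150-568171 on GRCh38.p14, minus strand. Poly(A) selection does not capture the mature forms, and their levels were not measured.

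SPAG4 (ENSG00000061656, chromosome 20, 35615892 to 35621049, plus strand), a protein of the nuclear envelope, stood at 33.6, 29.2 and 34.3 CPM in GPT2sinc 1 to 3 and 21.5, 21.7 and 20.4 CPM in GPT2si 1 to 3, a log2 fold change of -0.61 (SE 0.10, adjusted p = 0.0303). The GPT2si libraries were nearly equal, and the groups were apart. PPFIA4 (ENSG00000143847, chromosome 1, 203026498 to 203078740, plus strand), a liprin scaffold protein, stood at 103, 73.2 and 62.5 CPM in GPT2sinc 1 to 3 and 44.0, 27.0 and 49.4 CPM in GPT2si 1 to 3, a log2 fold change of -0.99 (SE 0.23, adjusted p = 0.0727). Both groups were widely spread without overlap, and the difference, the second most negative of the members, did not pass. It passed with DESeq2, with the GC and length offsets described below, and without GPT2sinc 1 and GPT2si 2 together, the last at -0.55. ANKRD37 (ENSG00000186352, chromosome 4, 185396021 to 185400628, plus strand), an ankyrin repeat protein, stood at 8.20, 5.79 and 5.47 CPM in GPT2sinc 1 to 3 and 3.58, 2.69 and 3.73 CPM in GPT2si 1 to 3, a log2 fold change of -0.96 (SE 0.21, adjusted p = 0.0592). Its groups did not overlap, at low levels. UFSP2 on the opposite strand covers 35.2% of the exon bases of ANKRD37 and had 5717 counts against 1338.

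TMEM45A (ENSG00000181458, chromosome 3, 100492619 to 100577444, plus strand), a membrane protein, stood at 71.1, 74.6 and 76.1 CPM in GPT2sinc 1 to 3 and 64.7, 47.1 and 58.5 CPM in GPT2si 1 to 3, a log2 fold change of -0.38 (SE 0.12, adjusted p = 0.133). The GPT2si libraries were spread, with GPT2si 2 lowest, and did not reach GPT2sinc. NARF (ENSG00000141562, chromosome 17, 82458180 to 82490537, plus strand), which binds prelamin A in the nucleus, stood at 73.1, 79.9 and 86.4 CPM in GPT2sinc 1 to 3 and 69.7, 76.6 and 66.5 CPM in GPT2si 1 to 3, a log2 fold change of -0.17 (SE 0.10, adjusted p = 0.366). GPT2si 2 lay above GPT2sinc 1, so the groups overlapped. The libraries were made to keep strand, per the labels, but the sources used here do not give the strand setting of the counting. The values of members that overlap other genes are therefore uncertain to that extent.

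**Figure D2:**
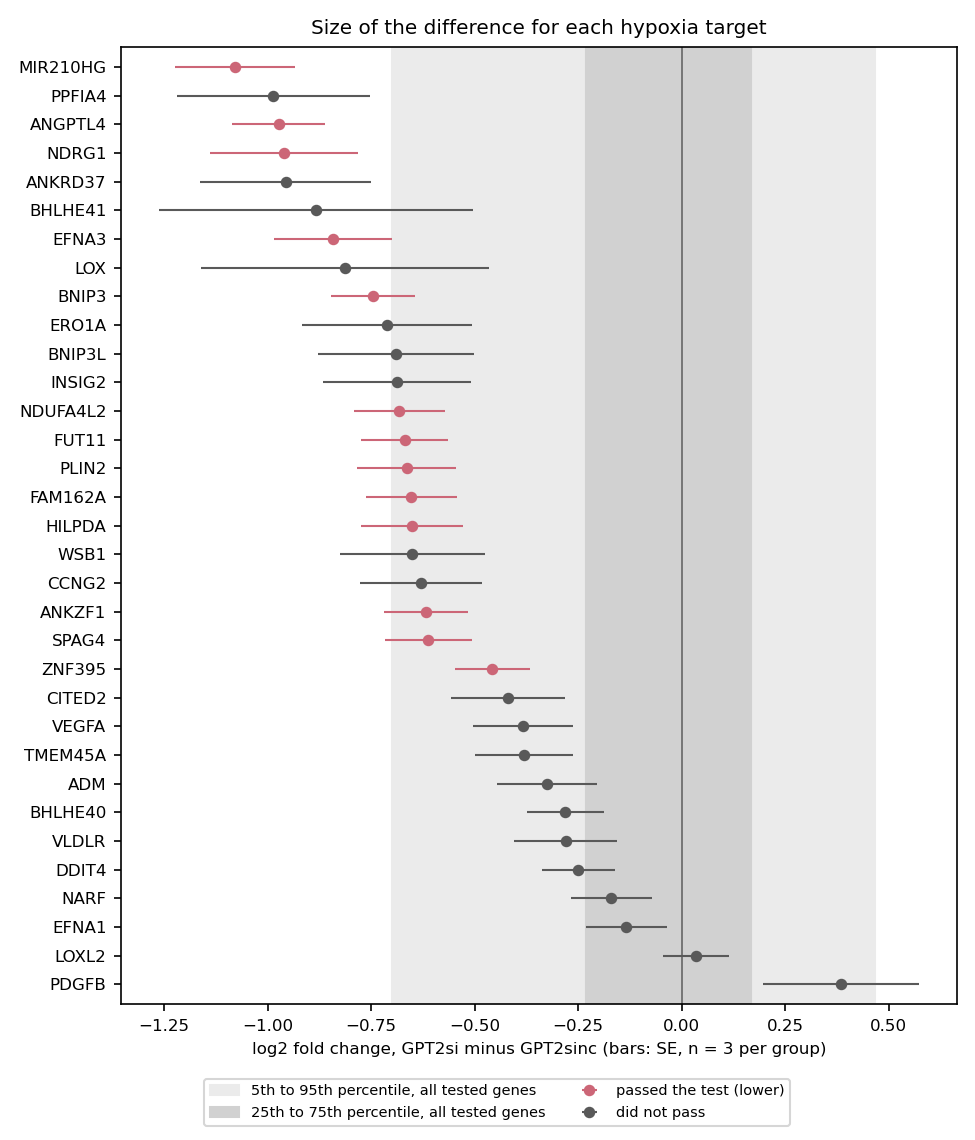
Points are log2 fold changes of GPT2si over GPT2sinc with SE bars (n = 3 per group) for 33 members (RORA is left out), and the grey bands run from the 5th to 95th and the 25th to 75th percentile of all 17006 tested genes. Members below -0.70, the 5th percentile of all tested genes, include 5 that passed the test and 5 that did not.

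Differences and calls did not run in parallel among the members. In 21 members the log2 fold change was below -0.5, in 11 it was between -0.5 and 0, and in 2 above 0. Of the 10 most negative members, 5 passed (MIR210HG, ANGPTL4, NDRG1, EFNA3 and BNIP3). The other 5 (PPFIA4, ANKRD37, BHLHE41, LOX and ERO1A) had SE from 0.21 to 0.38, against 0.10 to 0.18 in those that passed. ZNF395 passed at -0.46, with an SE of 0.09. By role, the median log2 fold change was -0.35 in the 6 secreted and surface signals, -0.39 in the 2 matrix oxidases, -0.69 in the 4 mitochondrial genes and -0.66 in the 4 genes of lipids. It was -0.42 in the 5 transcription regulators, -0.63 in the 3 genes of growth and stress, -0.66 in the 4 of folding and turnover, and -0.78 in the other 6.

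Levels also spanned a wide range. Per kilobase of exon, DDIT4 had the highest level in GPT2sinc, 257.6 CPM per kb, and 217 CPM per kb in GPT2si. ANGPTL4 followed with 77.7 and 39.5, FAM162A with 58.3 and 37.1, and BNIP3 with 49.95 and 29.8 CPM per kb. Thus ANGPTL4 stood above FAM162A and BNIP3 in GPT2sinc. In GPT2si its mean was close to that of FAM162A. In GPT2sinc, 22 members were at 10 CPM per kb or more and 31 at 1 or more. The 3 under 1 were LOX (0.803), BHLHE41 (0.388) and RORA (0.0103), whose groups overlapped.

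Within both groups, 1 library differed from the others of its group by the base composition and length of the genes. In the members, the log2 CPM of GPT2si 2 minus the mean of GPT2si 1 and GPT2si 3 was lower where the GC content of the longest transcript was lower. Pearson's r was 0.62 and Spearman's rho 0.65 across the 34 members, 0.66 and 0.62 without RORA, and 0.46 and 0.61 across 16825 tested genes. With log2 transcript length the members had r of -0.50 and rho of -0.46. GPT2sinc 1 minus the mean of GPT2sinc 2 and 3 ran the other way, with r of -0.33 and rho of -0.21 for GC content and 0.42 and 0.34 for length in the members. Across all tested genes its rho was -0.29 and 0.23. The genes share the same libraries, so these are descriptions without a p. The median difference of GPT2si 2 was -0.29 over the members and -0.01 over all tested genes, and that of GPT2sinc 1 was 0.23 and -0.01. Between the groups, the log2 fold change of the members had r of 0.07 and rho of 0.03 with GC content, and 0.17 and 0.10 without RORA. Across the 16825 tested genes it had r of 0.135 and rho of 0.2. With log2 transcript length the log2 fold change had r of 0.24 and rho of 0.15 in the members. Across the 16825 genes these were -0.08 and -0.10.

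**Figure D3:**
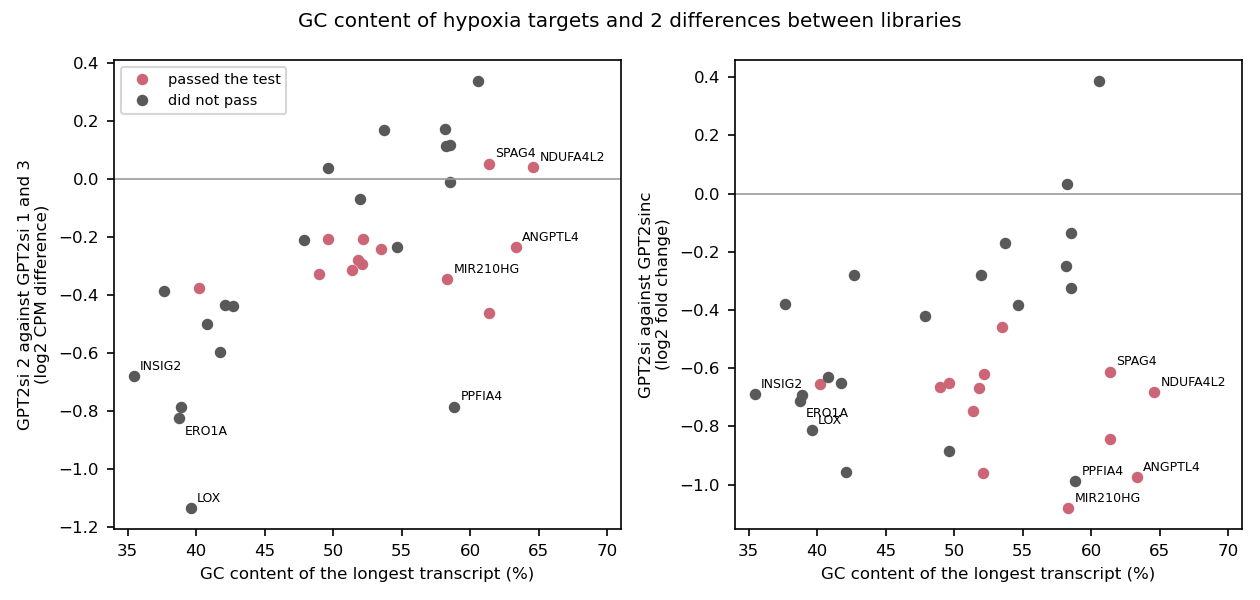
Both panels have the GC content of each member's longest transcript in percent on the horizontal axis, with RORA left out. On the left the difference of GPT2si 2 from GPT2si 1 and 3 (log2 CPM) climbs with GC content, and on the right the log2 fold change between the groups shows little relation to it.

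The 17 members with lower GC content (35.5% to 51.8%) had a median log2 fold change of -0.66, and 5 of them passed. The median of GPT2si 2 against GPT2si 1 and 3 was -0.43 there. Among the 17 with higher GC content (52.0% to 64.6%) the median was -0.46 and 8 passed, and GPT2si 2 differed by -0.07. Without GPT2si 2 the medians were -0.51 and -0.40, with 8 and 9 members past the test. Over genes of any GC content, 0.841% were called lower with all 6 libraries and 2.62% without GPT2si 2. The shares among all tested genes of each GC range were not counted, so nothing is read from these counts. Members of low GC content such as ERO1A, BNIP3L and INSIG2 had a large spread in GPT2si. Some members of high GC content, such as NDUFA4L2 and SPAG4, had GPT2si libraries that were alike. Others did not. GPT2si 2 against GPT2si 1 and 3 was -0.78 in PPFIA4, -0.46 in EFNA3 and -0.35 in MIR210HG. With GC content and transcript length entered as offsets in edgeR, 23 members passed as lower, among them the 13. This stood beside 3.96% of the 16825 genes in that fit. Its median log2 fold change was -0.55 over the members and 0.05 over all genes, against -0.65 and -0.01 without offsets. Single members moved unequally. With the offsets VLDLR went from -0.28 to -0.09 and INSIG2 from -0.69 to -0.52, while ANGPTL4 went from -0.97 to -0.95. DESeq2 called 22 members lower, again with the 13, beside 3.42% of the 13435 genes given an adjusted p. These fits also changed the balance of all calls: 40.7% of the calls were higher in GPT2si in the first edgeR fit, 66.2% with the offsets and 56.6% with DESeq2.

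The oxygen sensing machinery was next compared, from a list of 12 HIF subunits, hydroxylases and cofactors. HIF3A passed as lower, 1 of 12 with 0 higher, and the list's median log2 fold change was -0.10. At an unadjusted p under 0.05, 3 were lower and 1 higher, and DESeq2 called 3 and 0. Those lower at the unadjusted p were HIF3A, EGLN1 (-0.61, SE 0.18) and EGLN3 (-0.86, SE 0.20). EGLN1 and EGLN3 are also in the list of carbonic anhydrases and oxygenases below, so the counts of these lists are not independent. HIF3A (ENSG00000124440, chromosome 19), the alpha subunit that can restrain the others and is itself a HIF target, stood at 32.9, 33.1 and 27.9 CPM in GPT2sinc 1 to 3 and 15.2, 18.1 and 18.1 CPM in GPT2si 1 to 3, a log2 fold change of -0.87 (SE 0.12, adjusted p = 0.0159). The groups were far apart. HIF1A (ENSG00000100644, chromosome 14), the main alpha subunit, stood at 115, 96.7 and 82.5 CPM in GPT2sinc 1 to 3 and 93.1, 65.9 and 110.3 CPM in GPT2si 1 to 3, a log2 fold change of -0.13 (SE 0.18, adjusted p = 0.731), and its groups overlapped. Its protein was not measured.

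Other known HIF targets were counted for context, from lists that were also drawn up with earlier results known. Of 21 glycolytic targets 8 passed as lower and 0 as higher (unadjusted 21 and 0, DESeq2 16 and 0), with a median of -0.38. Smallest in p were ALDOC (-0.83, SE 0.09), SLC16A3 (-0.74, SE 0.09), PFKFB4 (-0.69, SE 0.09) and SLC2A1 (-0.44, SE 0.07), which encode an aldolase, the lactate exporter, a regulator of glycolysis and the glucose carrier. Of 12 carbonic anhydrases and oxygenases 3 passed as lower and 0 as higher (unadjusted 11 and 0, DESeq2 9 and 0), with a median of -0.47. They were CA9 (-1.18, SE 0.14), which sets pH at the cell surface, P4HA2 (-0.55, SE 0.08), which hydroxylates collagen, and KDM4B (-0.46, SE 0.07), a histone demethylase. Of 19 tested further HIF targets 4 passed as lower and 0 as higher (unadjusted 10 and 1, DESeq2 8 and 1), with a median of -0.42. These were PPP1R3C (-1.01, SE 0.17) and PGM1 (-0.50, SE 0.08), both of glycogen metabolism, MXI1 (-0.71, SE 0.13), an antagonist of MYC, and STC2 (-0.65, SE 0.12), a secreted glycoprotein. Over these 3 lists, each gene once, 15 of 52 passed as lower and 0 as higher, beside 13 of 34 members, and the median was -0.45 beside -0.65.

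**Figure D4:**
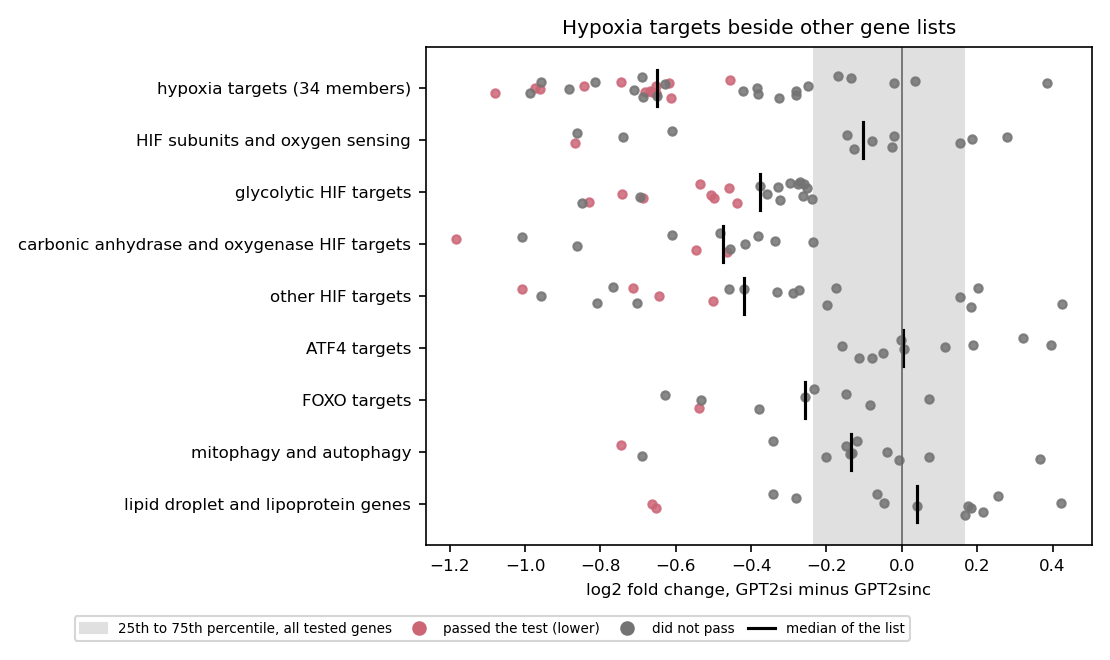
Each point is a tested gene's log2 fold change of GPT2si over GPT2sinc, by gene list, with the list's median as a black bar and the middle range of all tested genes in grey. The medians run from -0.65 in the 34 members to 0.04 in the lipid droplet and lipoprotein list, and red points passed the test.

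Lists that share a function or a family with members, but not as a rule HIF, are set beside them. Among 12 mitophagy and autophagy genes BNIP3 alone passed (1 lower, 0 higher, unadjusted 3 and 1, DESeq2 2 and 1), and the median was -0.13. Among 13 tested lipid droplet and lipoprotein genes PLIN2 and HILPDA passed (2 lower, 0 higher, unadjusted 4 and 1, DESeq2 2 and 1), and the median was 0.04. Among 9 tested FOXO targets PIK3IP1, an inhibitor of the growth kinase PI3K, passed as lower (-0.54, SE 0.09). There 5 were lower and 0 higher at an unadjusted p under 0.05, DESeq2 called 2 and 0, and the median was -0.26. Among 10 ATF4 targets, genes of amino acid stress, 0 passed in either direction (unadjusted 0 lower and 1 higher, DESeq2 0 and 1), and the median was 0.0019. The most abundant were ATF4 itself (0.19, SE 0.09) and PSAT1 (-0.0028, SE 0.08), and neither passed.

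Families of single members gave the same kind of count. Among 5 ephrin A ligands EFNA3 passed as lower (1 lower, 0 higher, unadjusted 3 and 0, DESeq2 3 and 0), and the median was -0.38. Among 4 NDRG genes NDRG1 and NDRG4 passed as lower, NDRG4 at -0.60 (SE 0.12, adjusted p = 0.0485), and 0 as higher (unadjusted 2 and 0, DESeq2 2 and 0). Among 9 tested vessel growth ligands 0 passed (unadjusted 2 lower and 0 higher, DESeq2 1 and 0), with a median of -0.07. The most abundant, VEGFA and VEGFB (-0.31, SE 0.11), did not pass. Among 5 lysyl oxidases 0 passed (unadjusted 2 lower and 0 higher, DESeq2 0 and 0), with a median of -0.10. The most abundant were LOXL2 and LOXL3 (-0.26, SE 0.10), which encodes another collagen oxidase. Where a list holds members, its count is not independent of the members' own.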

How the data were processed

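RNA from A2780 cells was sequenced in 6 libraries after poly(A) selection and a protocol that keeps strand, per the labels. The authors deposited raw counts of reads by Ensembl gene, and all 6 columns were matched by name to GPT2sinc 1 to 3 and GPT2si 1 to 3. Per the submitters' processing notes, CASAVA and StringTie were among the tools, with no version or role stated. For aligner, counting program, strand setting, build and annotation, nothing is given in the sources used here. The members, their roles and the gene lists were chosen with earlier results of these data known, and 1 marker list is not reported here.

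GPT2si was compared with GPT2sinc on the deposited counts in edgeR 4.0.16 (R 4.3.3, glmQLFit and glmQLFTest), with TMM factors, filterByExpr, the group as the only term, and Benjamini-Hochberg adjustment over the 17006 genes kept, at a threshold of 0.05. SE were derived from the F statistic. CPM use the TMM-scaled totals, and centred log2 CPM a prior count of 2. Text named every member and, from each list, up to 4 genes past the test with the smallest p, or else the 2 most abundant. HIF1A, EGLN1 and EGLN3 were named besides. Alternatives were upper-quartile factors or the size factors of DESeq2 in edgeR, no filter, a filter of 1 CPM in 3 libraries, the Wald test of DESeq2 1.42.0, voom of limma 3.58.1, a block by replicate number, offsets for GC content and transcript length (loess span 0.5, 98.9% of tested genes), and leaving out each library. GENCODE 29 (GRCh38) gave chromosomes, exon lengths, GC content and overlaps, by Ensembl identifier. Counting error alone limits a count of 0 to 3 counts, and reads copied by PCR, with no molecular identifiers, are not separate molecules. No 2 libraries were duplicates (chi-square per degree of freedom at least 7.71).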

Additional observations from a re-analysis of the deposited data

How the results depend on the processing

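Counts of calls moved with the settings, and the members' median log2 fold change stayed negative in all of them. Members called lower numbered 3 without the low-count filter (27 lower and 17 higher over all genes), 22 with DESeq2 (460 and 600), and 23 with GC and length offsets (667 and 1306). DESeq2 size factors left 61 genes higher. The deviations of same-numbered libraries from their group means had correlations of 0.09, 0.11 and -0.19. With 3 libraries per group, these cannot decide whether the numbers pair the libraries. The replicate block gave 20 members lower (306 and 252 over all genes), and 20 with the offsets added (661 and 1336). Leaving out 1 library gave 0 to 17 members lower, 1 to 459 genes lower and 0 to 377 higher, and medians from -0.69 to -0.51. The difference in the mitochondrial share was 0.295 to 0.874 percentage points. Without both GPT2sinc 1 and GPT2si 2, an alternative chosen after seeing the data, 23 members were lower (825 genes lower and 754 higher) with a median of -0.39. No member was called higher by any tool or setting, and at an unadjusted p under 0.05 at most 1 was. The cause of these moves was not tested.

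Of 543 values of single members under another setting, 417 kept direction and call, 47 passed only there, 72 no longer passed and 7 reversed. LOXL2 was -0.013 with upper-quartile factors and ran from -0.019 to 0.074 with 1 library left out. RORA was 0.25 with offsets, 0.21 with block and offsets, -0.46 to 1.12 with 1 library left out, and 1.65 without GPT2sinc 1 and GPT2si 2. Of the 13 members called lower, 13 were also called with DESeq2, with offsets, with the block and without GPT2si 2, and 11 with limma-voom. ANGPTL4 passed in 12 of 15 other settings, BNIP3 and MIR210HG in 11. Of the 6 settings that left out 1 library, ANGPTL4 passed in 3, and BNIP3 and MIR210HG in 2 each. The letters ACGTG alone left 17 members of the 21 with a promoter match. PPFIA4 passed in 4 of the 15 (DESeq2, offsets, block, and block with offsets). Of the other members not called in the first fit, BNIP3L, INSIG2 and CCNG2 passed in 5 of the 15. ERO1A, WSB1 and ANKRD37 passed in 4, VEGFA and DDIT4 in 2, and CITED2 and TMEM45A in 1.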
